A study of Mus musculus with 29 samples.

Results

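The MHC class I presentation genes examined here are 10 genes chosen by name for their role: the heavy chains H2-K1 and H2-D1, the light chain B2m, the peptide transporter subunits Tap1 and Tap2, the loading proteins Tapbp, Calr and Pdia3, the peptidase Erap1 and the transactivator Nlrc5. All 10 were found among the 55376 gene symbols of the RNA-seq files, and all 10 were among the 33690 genes with enough reads to be tested. MHC class I molecules show peptides from inside the cell to CD8+ T cells and to NK cells. A heavy chain pairs with β2-microglobulin in the endoplasmic reticulum, TAP pumps in peptides cut by the proteasome, ERAP1 trims them, and tapasin, calreticulin and the disulfide isomerase ERp57 hold the empty molecule until a peptide fits. Interferon raises many genes of this pathway, and NLRC5 switches on the class I genes through a shared promoter module. Stem cells of the blood are known to carry class I on their surface.

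The RNA was that of mouse hematopoietic stem cells (HSCs), the bone marrow cells that renew all blood lineages. The 19 libraries fall into 4 groups: 4 YWT (genotype WT, young), 4 OWT (WT, old), 4 YKO (genotype Gadd45KO, young) and 7 OKO (Gadd45KO, old). The knockout line lacks Gadd45b, a stress-induced gene linked to DNA demethylation and cell cycle arrest. Each library was made from total RNA with an amplifying low-input kit, and the bisulfite samples are not analysed here. In such bulk RNA, fewer cells of a type and less RNA per cell cannot be told apart. No label says that each replicate is a separate animal, so p-values measure the spread between these samples, part of which may be technical.

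The libraries held between 22197555 and 77970627 counted reads, with a median of 57562473, and the lowest count of any of the 10 genes in any library was 1945, so counting error was small for each of them. Summed over the list, HSC markers were at 2025 to 4246 CPM (counts scaled to a common library size, here after TMM normalization) in the 19 libraries, and all 9 of them were read in every library. Markers of B cells, of class II antigen-presenting cells and of erythroid cells were also read in every library. OKO1 stood apart, with 27972 genes over 1 CPM against 15296 to 20579 in the other libraries. The OWT libraries and OKO4 to OKO7 have the prefix IB15 in their titles and the others do not, and the study's sequencing summary gives these as 2 batches, so age in WT and batch cannot be told apart. The labels give F as the sex of all 19 libraries, while the sequencing summary lists 8 as male. In 7 libraries the X-linked Xist lay below the summed Y-linked genes, which goes against the label F. Each of the 4 groups held libraries of both readings. In 3 libraries this reading went against the sex in the sequencing summary, so sex was not used. Gadd45b itself averaged 10.5 ± 4.69 CPM in YWT (SD, n = 4), 11.5 ± 2.63 in OWT (n = 4), 9.53 ± 4.64 in YKO (n = 4) and 4.45 ± 1.39 in OKO (n = 7). YKO and YWT overlapped for it, and every comparison follows the labels.

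Of the 10 genes, 5 lie in the MHC region of chromosome 17 in mm10: Tapbp at chr17:33915899-33929292, H2-K1 at chr17:33996017-34000347, Tap1 at chr17:34187553-34197225, Tap2 at chr17:34203527-34216321 and H2-D1 at chr17:35262730-35267499. The others are unlinked to it, with Pdia3 (chr2:121413775-121438687) and B2m (chr2:122147686-122153083) on chromosome 2, Calr (chr8:84841850-84846934) and Nlrc5 (chr8:94434356-94527272) on chromosome 8, and Erap1 (chr13:74639568-74693201) on chromosome 13.

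The promoters of the 3 chains of the class I molecule itself are shown because H2-K1 and H2-D1 moved together more closely than any other pair of the list, and because B2m is encoded on another chromosome. Each sequence is the 250 bases before the RefSeq start site in GRCm38.p6, read 5′ to 3′ on the gene's strand. Capitals mark the letters GGGNNTTCC (a form of a κB site), TTTCNNTTC (a form of an interferon response element), TGACG (a CRE-like core) and CCAAT. Each was searched on both strands, with no overlap between motifs.
H2-K1 (chr17:34000348-34000597, minus strand): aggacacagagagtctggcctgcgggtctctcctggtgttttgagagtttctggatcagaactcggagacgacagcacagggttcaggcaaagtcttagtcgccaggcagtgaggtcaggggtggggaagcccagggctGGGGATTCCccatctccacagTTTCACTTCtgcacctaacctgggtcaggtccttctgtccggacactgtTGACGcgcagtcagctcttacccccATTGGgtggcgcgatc
H2-D1 (chr17:35262844-35263093, plus strand): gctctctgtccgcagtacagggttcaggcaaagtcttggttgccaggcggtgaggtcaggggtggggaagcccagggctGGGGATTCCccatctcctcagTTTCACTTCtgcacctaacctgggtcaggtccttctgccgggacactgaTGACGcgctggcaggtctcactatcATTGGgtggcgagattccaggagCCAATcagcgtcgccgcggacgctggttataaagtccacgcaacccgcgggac
B2m (chr2:122147437-122147686, plus strand): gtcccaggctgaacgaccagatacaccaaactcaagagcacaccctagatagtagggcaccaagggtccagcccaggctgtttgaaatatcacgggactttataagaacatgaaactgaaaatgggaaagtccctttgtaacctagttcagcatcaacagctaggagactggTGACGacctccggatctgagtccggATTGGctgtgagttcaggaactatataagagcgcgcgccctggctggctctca

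Both heavy chain windows held the 4 motifs in the same order, and the B2m window held TGACG and ATTGG but neither of the other letters. Among 27025 promoters of the same length, the κB letters were in 4.88%, the interferon response letters in 6.34%, TGACG in 17.9% and CCAAT in 34.5%. Of the 10 genes, 8 had a RefSeq window, and of these 2 held the κB letters, 2 the interferon response letters, 5 TGACG and 7 CCAAT. These are matches of letters, and binding was not measured. Other forms of these elements were not searched, so a window without the letters, such as that of B2m, may still hold such an element. The Erap1 window (chr13:74639603-74639852, plus strand) held none of the 4, and is shown because Erap1 is the gene of the list with the lowest p-value in the comparisons below.
Erap1: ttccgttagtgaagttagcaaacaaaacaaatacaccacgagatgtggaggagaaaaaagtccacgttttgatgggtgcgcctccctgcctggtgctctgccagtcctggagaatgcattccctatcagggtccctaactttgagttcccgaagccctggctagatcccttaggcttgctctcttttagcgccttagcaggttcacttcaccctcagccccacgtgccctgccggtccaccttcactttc

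The light chain and the heavy chains were among the most abundant messages of these HSCs. Per kilobase of merged exons, B2m averaged 2690 CPM over the 19 libraries, H2-D1 1248 and H2-K1 927. They lay at the 99.97, 99.92 and 99.87 percentiles of the 33226 tested genes with a known length. The chaperones followed, with Calr at 297 and Pdia3 at 195 CPM per kilobase. Tapasin (Tapbp) was at 125, Tap2 at 61.9 and Tap1 at 50.2 CPM per kilobase. Erap1 (20.7) and the transactivator Nlrc5 (11.9, percentile 83.8) were lowest. Neighbours in this order overlapped in their range over libraries, except that the lowest H2-K1 value (549 CPM per kilobase) lay above the highest Calr value (421), and the lowest Tap1 value (28.2) above the highest Erap1 value (27.1).

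**Figure D1:**
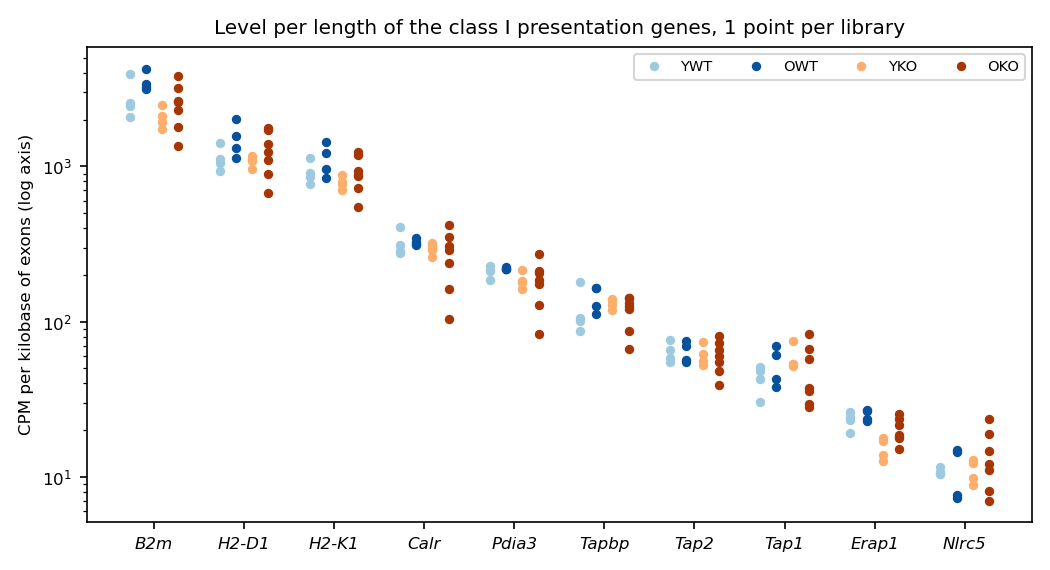
CPM per kilobase of merged exons (log axis) of the 10 genes, with 1 point per library, coloured by group and ordered by the mean over 19 libraries. B2m is highest (mean 2690) and Nlrc5 lowest (mean 11.9), and the 4 groups overlap for nearly every gene.

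Some reads of these genes are hard to place. Of all 50-base stretches of H2-D1 transcripts, 12.8% also occur in transcripts of another gene, most often H2-Q1, H2-K1 and H2-Q7, and for H2-K1 the share is 9.63%. It is 2.87% for Tapbp, under 1% for Tap1 (0.442%), Tap2 (0.655%) and Calr (0.343%), and 0 for B2m, Pdia3, Erap1 and Nlrc5. On the opposite strand, genes overlap 24.9% of the exon bases of Tapbp (Gm19412), 14.1% of those of Tap2 (Gm15821), 11.5% of those of Erap1 (Cast) and 3.87% of those of Tap1 (Psmb9). Whether strand was used in counting is not given in the sources used here, so reads in these stretches cannot be told apart.

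Together the 10 genes took between 0.949% and 1.06% of all counted reads in the YWT libraries, and between 1.04% and 1.41% in OWT. They took 0.817% to 0.910% in YKO, the lowest 4 shares of the 19 libraries, and 1.02% to 1.34% in OKO. This share is set mainly by H2-K1, H2-D1 and B2m, and it carries no TMM factor. The genes were tested 1 by 1 with the edgeR quasi-likelihood test, fitted on all 33690 genes in 19 libraries. A gene is called where its p, adjusted by Benjamini and Hochberg's method, is under 0.05 and its fold change exceeds 1.5. SE is the standard error of a log2 fold change.

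**Figure D2:**
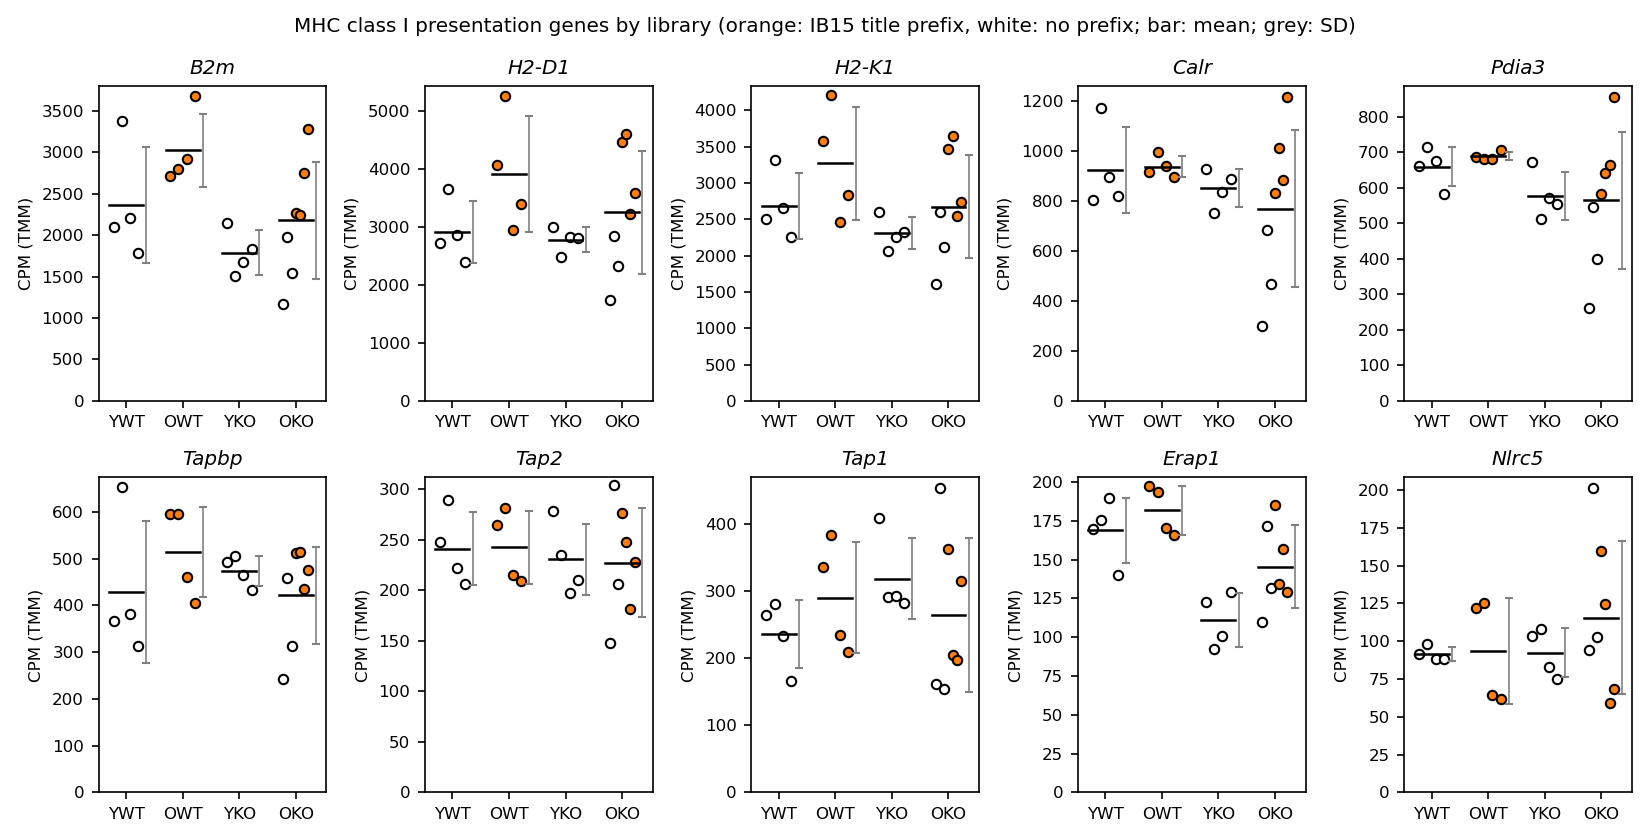
CPM (TMM-scaled) of each of the 10 genes in the 19 libraries by group; circles are libraries, orange with the IB15 title prefix and white without it, black bars are group means and grey bars 1 SD. Erap1 in the 4 YKO libraries (92.3 to 129 CPM) lies below the 4 YWT libraries (140 to 190 CPM), and in OWT and in the orange OKO libraries Nlrc5 falls into a high and a low pair.

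Age in WT HSCs came first. None of the 10 genes was called in OWT vs YWT by edgeR, where 0.00297% of the tested genes were, none had an unadjusted p under 0.05 (4.38% of all genes did), and DESeq2, which called 0.688% of its tested genes, called none of the 10 either. All 10 had a log2 fold change above 0, with a median of 0.18, against a median of -0.05 over all tested genes and 0.05 over the 12324 genes with a mean of at least 5 CPM. The largest was that of H2-D1, one of the classical heavy chains. It was at 2724, 3652, 2863 and 2400 CPM in YWT and at 4066, 5250, 2941 and 3387 CPM in OWT. OWT1 and OWT2 lay above all YWT libraries and the other 2 within their range. Its log2 fold change was 0.43 with an SE of 0.31. B2m followed with 0.36 (SE 0.31), then Tap1 with 0.30 (SE 0.32) and H2-K1 with 0.29 (SE 0.29), and Tap2 had the smallest with 0.01. With a covariate for title prefix, informed by the OKO libraries alone, 8 of the 10 values turned below 0, among them Calr at -1.004 and B2m at -0.40, and none was called. Markers of other cell types moved with this comparison. All 8 B cell markers had a log2 fold change below 0 (6 of 8 at an unadjusted p under 0.05, median -2.22) and 8 of 9 granulocyte and monocyte markers one above 0 (6 of 9 at such a p, median 1.74), although edgeR called none of either list. All 9 HSC markers were above 0, with a median of 0.48. Summed, the granulocyte and monocyte markers were at 111 to 272 CPM in YWT and 531 to 889 CPM in OWT, and the B cell markers at 222 to 661 and 68.5 to 207 CPM. Their part in the class I values was not tested.

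In YKO vs YWT, Erap1 had the lowest p-value of the list. The ERAP1 peptidase trims peptides to the length that class I molecules bind. Its level was 169, 176, 190 and 140 CPM in YWT and 123, 92.3, 101 and 129 CPM in YKO. Every YKO library lay below every YWT library, which held for 3.01% of all tested genes and 5.09% of the genes with a mean of at least 5 CPM. The log2 fold change was -0.60, with an SE of 0.20 and an edgeR adjusted p of 0.693 (unadjusted 0.00599), so Erap1 was not called. DESeq2 gave -0.58 with an adjusted p of 0.0414, just short of the fold limit of 0.585 on the log2 scale. Over the other settings the edgeR adjusted p of Erap1 ranged from 0.0711 (genes with a mean of at least 5 CPM) to 0.895 (replicate block), and with a library left out the log2 fold change lay between -0.72 and -0.52. Cast, the gene for the calpain inhibitor calpastatin whose exons overlap those of Erap1 on the other strand, had a log2 fold change at -0.60 (SE 0.20, adjusted p by edgeR = 0.742) in the same comparison. The share of Erap1 reads from the overlap was not tested.

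Tap1, a subunit of the transporter that brings peptides into the endoplasmic reticulum, went the other way. It was at 263, 281, 233 and 166 CPM in YWT and at 409, 291, 292 and 282 CPM in YKO. The YKO libraries all lay above the YWT libraries, by a narrow margin between YKO4 and YWT2, and this held upward for 2.12% of all tested genes and 4.28% of those with a mean of at least 5 CPM. The log2 fold change was 0.43 (SE 0.32, adjusted p by edgeR = 1.0). Its partner Tap2 had a log2 fold change at -0.07 (SE 0.23).

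The light chain B2m was at 2100, 3373, 2206 and 1779 CPM in YWT and at 2150, 1502, 1675 and 1828 CPM in YKO. The groups overlapped, and YWT2 was high for B2m, Tapbp and Calr alike. The log2 fold change of B2m was -0.40 with an SE of 0.31. The other 7 genes had log2 fold changes between -0.22 (H2-K1) and 0.15 (Tapbp). edgeR called 0 of the 10 genes (0.0267% of all tested genes were called) and DESeq2 0 (0.713%), and only Erap1 had an unadjusted p under 0.05, which 4.59% of all genes had. Other cell types differed here as well. All 8 B cell, all 6 class II and all 7 erythroid markers had a log2 fold change above 0, with medians of 1.03, 0.88 and 1.55, and 7 of 8 T and NK cell markers did, 5 of them at an unadjusted p under 0.05. In 8 of 9 HSC markers it was below 0, with a median of -0.45, and edgeR called no marker of these 5 lists. The summed erythroid markers were at 659 to 2073 CPM in YWT and 1582 to 4524 CPM in YKO, and the summed HSC markers at 2309 to 3052 and 2025 to 2649 CPM. The part of these cells in the values of Erap1 and the other class I genes was not tested.

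The scale mattered for which groups overlapped. The TMM factors ran from 0.692 in YWT2 to 1.83 in OKO1, and YWT2 with its low factor was the highest YWT library for every gene of the list but Erap1. Scaled by library total alone, B2m was at 2048, 2333, 2241 and 2162 CPM in YWT and at 1819, 1437, 1595 and 1707 CPM in YKO, and H2-K1 at 2290 to 2738 and 1970 to 2200 CPM. On that scale 3 of the 10 genes (H2-K1, B2m and Erap1) lay lower in every YKO than in every YWT library, against 2.54% of the genes with a mean of at least 5 CPM, and Tap1 lay higher, as 2.92% did. With TMM only Erap1 and Tap1 were free of overlap in YKO vs YWT. Scaled by library total, B2m also lay higher in every OWT than in every YWT library, as 2.47% of these genes did, and H2-D1 and B2m lay higher in every OKO than in every YKO library, as 1.64% did. With TMM no gene of the list was free of overlap in either of those comparisons.

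**Figure D3:**
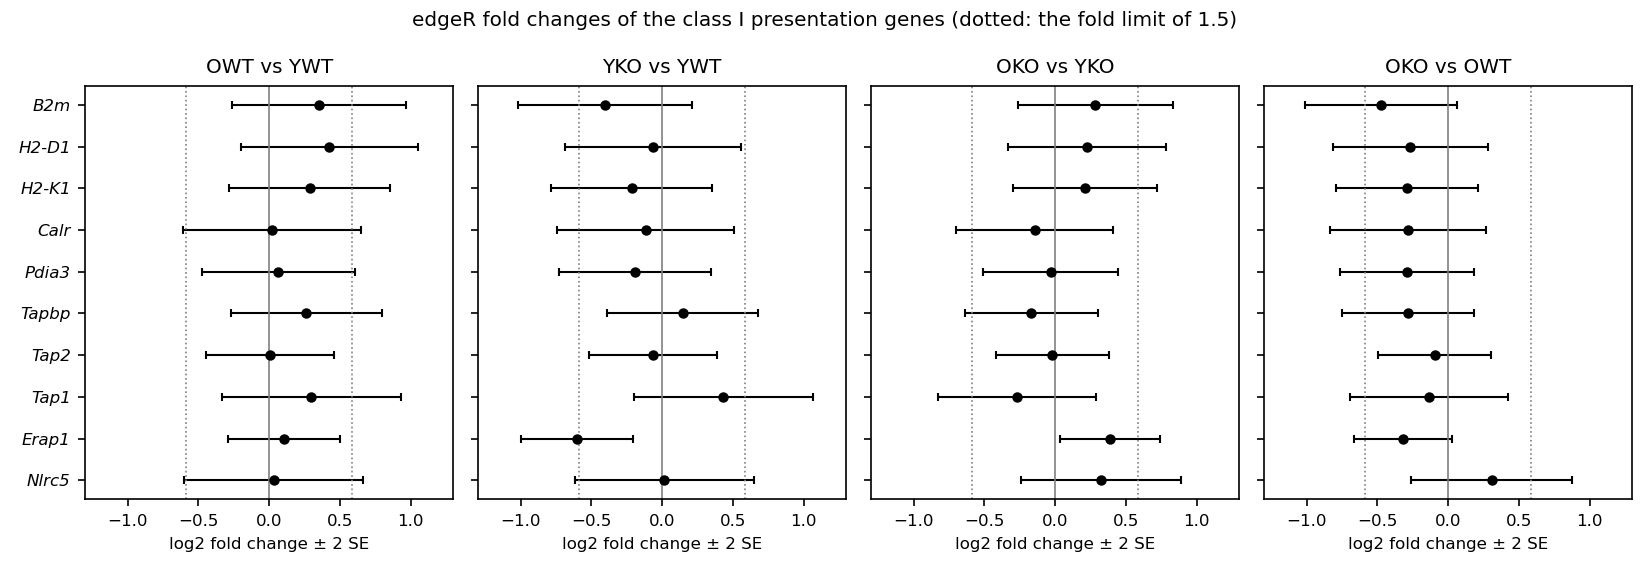
log2 fold change of each gene in the 4 comparisons (points), with bars of 2 standard errors from edgeR and dotted lines at the fold limit of 1.5. The bars of Erap1 stay below 0 in YKO vs YWT (-0.60) and above 0 in OKO vs YKO (0.39), while those of the other 9 genes cross 0 in all 4 comparisons.

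In OKO vs YKO, again 0 of the 10 genes were called by edgeR and by DESeq2, although this comparison had the most calls (1.29% of tested genes by edgeR and 6.64% by DESeq2). Their log2 fold changes lay between -0.27 (Tap1) and 0.39 (Erap1), 5 above 0 and 5 below. Their median was 0.10, and 9 of the 10 lay above the median of -0.18 over the genes with a mean of at least 5 CPM, while the median over all tested genes was 0.23. Erap1 was at 110 CPM in the lowest, 134 in the median and 185 in the highest OKO library, and 6 of the 7 lay above all YKO libraries, OKO1 being the exception. Its log2 fold change was 0.39 (SE 0.18), with an edgeR adjusted p of 0.287 and an unadjusted p of 0.0397, a level that 15.8% of all genes reached and no other gene of the list did. When only genes with a mean of at least 5 CPM were tested, 1502 of 12363 were called, Erap1 among them (log2 fold change 0.62, adjusted p by edgeR = 0.00499). Over the other settings its edgeR adjusted p ranged from 0.0266 (upper-quartile scaling, with a log2 fold change at 0.54) to 0.435. OKO vs YKO and YKO vs YWT share the YKO libraries, which are low for Erap1, so these values are not independent of each other.

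The spread among OKO libraries was wide, and not for the ER chaperones alone. The coefficient of variation in OKO was 43.7% for Nlrc5 and 43.3% for Tap1. Calr, the calreticulin gene, was at 927, 753, 837 and 887 CPM in YKO and reached from 299 CPM through a median of 830 to 1214 CPM in OKO. Its coefficient of variation was 40.8% in OKO and 8.82% in YKO, against medians of 31.2% and 18.1% over the genes with a mean of at least 5 CPM. Pdia3 ranged from 262 to 857 CPM in OKO, with a coefficient of variation of 33.98% there. For both genes the lowest library was OKO1 and the highest OKO7. The pooled log2 fold change of Calr in OKO vs YKO was -0.15 (SE 0.28). Without OKO1 it was -0.01, and against the 3 OKO libraries without the prefix, which share the batch of YKO, it was -0.80 (SE 0.30, adjusted p by edgeR = 0.0942).

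Within that batch none of the 10 genes was called, while 3221 of 31199 tested genes were. The heavy chains and B2m, at 0.21 (H2-K1), 0.23 (H2-D1) and 0.28 (B2m) over all OKO libraries, turned to -0.12, -0.26 and -0.18 within it, while Erap1 (0.32) and Nlrc5 (0.53) stayed above 0. These signs depended on the scaling. In the fit of all libraries the TMM factors were 1.24 to 1.83 in the 3 OKO libraries and 0.847 to 0.957 in YKO. The fit within the batch set its own factors. Scaled by library total alone, all 3 OKO libraries lay above all YKO libraries for H2-K1 (2931 to 3222 against 1970 to 2200 CPM), H2-D1 (3156 to 3524 against 2377 to 2693 CPM) and B2m (2131 to 2458 against 1437 to 1819 CPM). On that scale 6 of the 10 genes did so (also Tap2, Erap1 and Nlrc5), against 29.0% of the genes with a mean of at least 5 CPM. With prefix as a covariate over all libraries, 6420 of 33690 tested genes were called, Calr among them at -0.82. Other cell types moved in OKO vs YKO too. Over all libraries, every B cell, class II and erythroid marker had a log2 fold change below 0. edgeR called 6 of 8, 4 of 6 and 3 of 7 of them lower in OKO, where 1.29% of all tested genes were called. The summed B cell markers were at 202 to 1537 CPM in YKO and 29.6 to 198 CPM in OKO. Their part in the values of the class I genes was not tested.

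OKO vs OWT compares the genotypes at old age. None of the 10 genes was called by edgeR (0.0327% of all tested genes were) or DESeq2 (0.247%), and none had an unadjusted p under 0.05 (8.14% did). In 9 of the 10 the log2 fold change was below 0, with a median of -0.28. The median was -0.19 over the genes with a mean of at least 5 CPM and 0.12 over all tested genes, so most of this shift was shared by other well-read genes. B2m had the lowest value, -0.47 (SE 0.27). It was at 2709, 2796, 2922 and 3674 CPM in OWT and ranged from 1172 through 2245 to 3285 CPM in OKO. Of the 7 OKO libraries, 5 lay below all OWT libraries and 2 within their range. Nlrc5 alone was above 0, at 0.31 (SE 0.28).

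Restricted to the 4 OKO libraries that share the IB15 prefix with OWT, the differences shrank. B2m was then at -0.21 (SE 0.22), Erap1 at -0.26 (SE 0.16), H2-K1 at -0.07, H2-D1 at 0.03 and Calr at 0.07. Of the 10 genes 0 were called, and of 26213 tested genes 8 were. Summed granulocyte and monocyte markers were at 531 to 889 CPM in OWT and 93.4 to 430 CPM in OKO, all 9 HSC markers had a log2 fold change below 0 over the 7 OKO libraries, and their part in these values was not tested. No gene of the list was called for a difference of the genotype effect between ages, by edgeR (0.0% of tested genes were called) or by DESeq2 (0.0227%), and none had an unadjusted p under 0.05 (4.62% did). Tap1 had the largest such value, with a log2 difference of -0.57 (SE 0.42) between OKO vs OWT and YKO vs YWT.

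The transactivator Nlrc5 varied within the old groups rather than between groups. In YWT it was at 91.5, 98.2, 88.0 and 88.0 CPM, a coefficient of variation of 5.27%. In OWT it was at 122, 126, 64.6 and 61.7 CPM, with a coefficient of variation of 37.5%. The 2 high libraries, OWT1 and OWT2, carry numbers 3 and 4 in their IB15 titles, and the low ones 5 and 6. The OKO libraries with this prefix split the same way, at 159 and 124 CPM for title numbers 1 and 2 and at 59.4 and 68.4 CPM for 7 and 8. The study's sequencing summary lists the animals of titles 1 to 4 as older than those of titles 5 to 8. This split was looked at after the values were seen, so it is given as a description with no test.

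H2-K1 and H2-D1 separated by the same title numbers. H2-K1 was at 3461 to 4203 CPM in titles 1 to 4 and at 2459 to 2839 CPM in titles 5 to 8, and H2-D1 at 4066 to 5250 and 2941 to 3588 CPM. Tap2 (248 to 282 against 181 to 228 CPM) and Tapbp (511 to 596 against 405 to 477 CPM) did so too, so that 5 of the 10 genes did not overlap, each higher in titles 1 to 4. Over all genes with a mean of at least 5 CPM, 36.2% did not overlap in 1 direction or the other. Cell type markers split by title number too. The summed HSC markers were at 3518 to 4246 CPM in titles 1 to 4 and 2126 to 2945 CPM in titles 5 to 8, the erythroid markers at 112 to 545 and 557 to 2620 CPM, and the T and NK cell markers at 148 to 241 and 84.3 to 131 CPM. Of the B cell markers 7 of 8 had a log2 difference below 0, and their sums overlapped. The part of these markers in the class I values was not tested. B2m was not among the 5, and was at 2245 to 2796 CPM in titles 1 to 4 and 2747 to 3674 CPM in titles 5 to 8. With title set as a covariate within these 8 libraries, a setting added after the data were seen, OKO vs OWT again gave 0 calls among the 10 genes (0.089% of all tested genes), with values between -0.26 (Erap1) and 0.11 (Nlrc5).

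**Figure D4:**
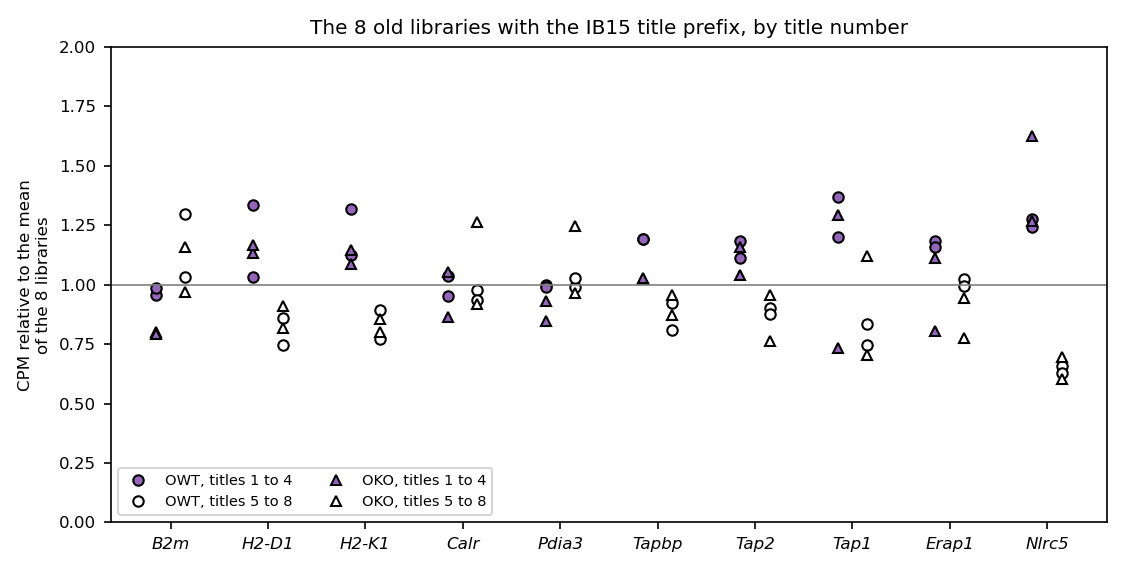
CPM of each gene in the 8 old libraries with the IB15 prefix, relative to their mean, for title numbers 1 to 4 (purple) and 5 to 8 (white); circles are OWT and triangles OKO. Nlrc5, H2-K1, H2-D1, Tap2 and Tapbp are higher in all 4 libraries of titles 1 to 4. Within titles 1 to 4, B2m, Tapbp, Pdia3 and Erap1 are higher in both OWT libraries than in both OKO libraries. Within titles 5 to 8 only Erap1 of these is so. The split by title number was looked at after the values were seen. The share of all genes with such an order was not counted, so these orders are a description and are not read as a genotype difference.

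Across the 19 libraries the list was not 1 block. H2-K1 and H2-D1 had a Spearman correlation of 0.95, B2m and Pdia3 0.91 and Calr and Pdia3 0.85, while Nlrc5 had 0.32 with H2-K1, 0.24 with H2-D1 and -0.23 with B2m. Tap2 stood between, at 0.74 with Tap1 and 0.71 with Nlrc5. These are descriptions over libraries that share batches and scaling factors, and H2-K1 and H2-D1 also share sequence. Among the 12324 genes with a mean of at least 5 CPM, those most like H2-K1 were H2-D1, Irf9 (0.94), an interferon signalling factor, Serinc1 (0.93), Sppl2a (0.92) and Slc25a20 (0.91). Those most like Tap1 were Irf7 (0.90) and Zc3hav1 (0.89), both interferon-induced, with Sec23ip (0.86), Anapc1 (0.84) and Plcl2 (0.83). Those most like Calr were Fuca2 (0.94), Reep5 (0.94), Ssr3 (0.93), Sec22b (0.92) and Os9 (0.92), of which Reep5, Ssr3, Sec22b and Os9 encode proteins of the endoplasmic reticulum.

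Around the list, 65 further genes of the pathway gave 1 call by edgeR in the 4 comparisons between groups. Of 20 other class I and class I-like chains, it was H2-T3 that was called, in OKO vs YKO, where 1.29% of all tested genes were. H2-T3 encodes the thymus leukemia antigen, a nonclassical chain. It was low throughout, at 1.81 to 3.04 CPM in YKO, 4.06 to 7.05 CPM in YWT, 5.90 to 18.3 CPM in OWT and 3.14 to 13.2 CPM in OKO. The OKO libraries all lay above the YKO libraries, which 1.45% of genes with a mean of at least 5 CPM did, and the log2 fold change was 2.04 (SE 0.38, adjusted p by edgeR = 0.00886). Without YKO1 the H2-T3 call was lost (log2 fold change 1.98, adjusted p by edgeR = 0.0505), and it was kept without any other single library (adjusted p by edgeR from 0.00107 to 0.0329). Over the OKO and YKO libraries without the IB15 prefix, the log2 fold change of H2-T3 was 2.38 (adjusted p by edgeR = 0.00432). H2-T3 was lower in all 4 YKO than in all 4 YWT libraries, which held for 3.01% of all tested genes and 5.09% of those with a mean of at least 5 CPM. Its log2 fold change there was -1.18 and was not called (SE 0.40, adjusted p by edgeR = 0.741). Both comparisons share the YKO libraries, which are low for H2-T3, so these values are not independent of each other. Of the 20 chains, 17 had a log2 fold change above 0 in OWT vs YWT and 17 below 0 in YKO vs YWT, with medians of 0.20 and -0.18. The medians over all tested genes were -0.05 and -0.02, and over genes with a mean of at least 5 CPM 0.05 and 0.03. In each comparison none was called, and 2 of the 20 had an unadjusted p under 0.05, as 4.38% and 4.59% of all genes did. H2-K2 is annotated as a pseudogene, and H2-T10 and Cd1d2 as polymorphic pseudogenes. H2-T23, which encodes Qa-1, had the highest mean over the 19 libraries (528.5 CPM), with H2-Q7 (528.2 CPM) and H2-Q6 (521.5 CPM) close behind. H2-T23 averaged 471 ± 103 CPM in YWT (SD, n = 4), 636 ± 203 CPM in OWT (n = 4), 415 ± 12.9 CPM in YKO (n = 4) and 565 ± 142 CPM in OKO (n = 7).

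None of the 22 genes for peptide supply and ER partners was called by edgeR in any of the 4 comparisons, where 0.00297% to 1.29% of all tested genes were. Between 0 and 2 of them had an unadjusted p under 0.05 in each. The 2 were in OKO vs YKO, where 15.8% of all tested genes had such a p. All 22 had a log2 fold change below 0 in OKO vs OWT, from -0.32 to -0.002, with a median of -0.15 that lay near the -0.19 of all genes with a mean of at least 5 CPM. Hspa5, the ER chaperone BiP, was the most abundant of them, at 871 ± 181 CPM in YWT (SD, n = 4) and 632 ± 358 CPM in OKO (n = 7). The immunoproteasome subunit Psmb8 averaged 349 ± 49.5 CPM in YWT (SD, n = 4) and 423 ± 45.7 CPM in OWT (n = 4).

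None of the 23 upstream regulators was called by edgeR in the 4 comparisons, where 0.00297% to 1.29% of all tested genes were. In each, 0 to 3 of them had an unadjusted p under 0.05. The 3 were in OKO vs YKO, where 15.8% of all tested genes had such a p. Jak1, the kinase shared by the interferon receptors, was the most abundant, at 460 ± 50.2 CPM in YWT (SD, n = 4) and 455 ± 105 CPM in OKO (n = 7). Irf1, an interferon-induced activator of class I promoters, was at 128 to 141 CPM in YKO and at 122 to 341 CPM in OKO, with a log2 fold change at 0.69 (SE 0.27, adjusted p by edgeR = 0.202). The receptor chain gene Ifngr1 had a log2 fold change at 0.88 in YKO vs YWT (SE 0.35, adjusted p by edgeR = 0.913) and the polycomb methyltransferase gene Ezh2 one of -0.87 in OKO vs YKO (SE 0.30, adjusted p by edgeR = 0.151).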

How the data were processed

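RNA of HSCs was measured in 19 libraries. As the study's methods state, the authors trimmed reads (Trim Galore 0.4.3) and mapped them by STAR to mm10, using GENCODE M22. They deposited the raw counts of featureCounts per gene symbol. The settings for strand and multi-mapped reads are not given in the sources used here.

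Counts were filtered with filterByExpr, scaled by TMM and tested with edgeR 4.0.16 (quasi-likelihood, R 4.3.3) in a single model of the 19 libraries with a mean for each group. DESeq2 1.42.0, the tool of the study, was run as an alternative. Exon lengths and positions are those of GENCODE M21, in which 54510 of 55376 symbols were found, and promoters are those of RefSeq. Tested on data simulated from these libraries, the procedure recovered 162 of 200 changed genes in OKO vs YKO with 10 false calls among 31847 genes. Recovery in the other comparisons was not measured. The planted changes were well above the fold limit and larger than any fold change of the 10 genes, and no batch difference was simulated. Recovery of fold changes as small as those of the 10 genes was not tested. The 10 genes and the further lists were chosen with earlier results of these data known. From each further list the text names the called genes and the gene with the highest mean CPM. Psmb8, Irf1, Ifngr1 and Ezh2 were named after their values were seen. The 5 genes most like H2-K1, Tap1 and Calr have the highest Spearman rho over 19 libraries. Alternatives were DESeq2, upper-quartile and RLE scaling, no filter, a mean of at least 5 CPM, the adjusted p alone, the compared groups alone, title prefix as a covariate or 1 prefix at a time, a replicate block, scaling by library total alone, and leaving out each library. Title set as a covariate was added after the data were seen.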

Additional observations from a re-analysis of the deposited data

Results flagged for a closer look

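Within a group of 4 to 10 libraries, a value was singled out where its gap to the next library exceeded 95% of what chance gives in Dixon's test. Tap1 in YKO1 was at 408.5 CPM, with the other 3 YKO libraries between 282.2 and 291.5 CPM. Pdia3 in OWT4 was at 707.2 CPM, with the other OWT libraries between 681.9 and 685.8 CPM. These are 2 of the 40 groups of values looked at, and chance alone flags about 1 in 20, or 2.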

How the results depend on the processing

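Under the other settings none of the 10 genes was called in any comparison, with exceptions in OKO vs YKO alone. Erap1 was called there at a mean of at least 5 CPM (1 of 10 genes, 0.62), where 1502 of 12363 tested genes were. Calr was called with title prefix as a covariate (1 of 10 genes, -0.82), where 6420 of 33690 tested genes were. Of 410 fold changes of the 10 genes under these settings, 57 had the other sign, and of 798 with a library left out, 45 did and 0 were called. The causes were not tested. Depth did not limit these genes, and the spread between libraries did: with standard errors of 0.17 to 0.32 on the log2 scale in the 4 comparisons between groups and 0.26 to 0.42 for the interaction, changes near the fold limit could be missed. The replicate numbers were not taken as pairs. Deviations of same-numbered libraries had correlations between -0.47 and 0.30. Differently numbered libraries were not compared, so these values cannot decide whether the numbers pair the samples. With a replicate block, 0 of the 10 genes were called, and 9 genes in OWT vs YWT, 25 in YKO vs YWT, 1774 in OKO vs YKO and 0 in OKO vs OWT.

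Over all genes, OWT vs YWT had 1 call, and 137 with DESeq2, 8 with no filter, 21 with title prefix as a covariate and 41 in a fit of the compared groups alone. YKO vs YWT had 9 calls, and 142 with DESeq2, 19 with upper-quartile scaling, 16 with RLE scaling, 20 with no filter, 24 at a mean of at least 5 CPM, 34 with the prefix covariate and 33 in the compared groups alone. OKO vs YKO had 434 calls, and 2068 with DESeq2, 1078 with upper-quartile scaling, 702 with RLE scaling, 1502 at a mean of at least 5 CPM, 6420 with the prefix covariate, 115 in the compared groups alone and 3221 within 1 batch. OKO vs OWT had 11 calls, and 92 with DESeq2, 7 with upper-quartile scaling, 25 with the prefix covariate, 1 in the compared groups alone and 25 with title set as a covariate. The interaction had 0 calls, 8 with DESeq2 and 163 with only the OKO libraries that lack the prefix. Leaving out a library gave 0 to 7 calls in OWT vs YWT, 2 (without YWT4) to 20 (without OKO7) in YKO vs YWT, 102 (without YKO1) to 1822 (without OKO7) in OKO vs YKO, 1 (without OWT1) to 11 in OKO vs OWT and 0 to 1 for the interaction.

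Signs turned as follows. In OWT vs YWT, Tap2, Calr and Nlrc5 were at -0.023, -0.0056 and -0.017 with DESeq2, at -0.049, -0.023 and -0.063 with upper-quartile scaling, at -0.023, -0.0056 and -0.017 with RLE scaling and at -0.054, -0.029 and -0.071 at a mean of at least 5 CPM. The prefix covariate gave H2-K1 -0.27, H2-D1 -0.36, B2m -0.40, Tap2 -0.080, Tapbp -0.25, Calr -1.004, Pdia3 -0.71 and Erap1 -0.032, and the replicate block gave Nlrc5 -0.026. In YKO vs YWT, Nlrc5 was at -0.026 with no filter, -0.014 at a mean of at least 5 CPM and -0.0047 with the replicate block.

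In OKO vs YKO, Tap2 and Pdia3 were at 0.033 and 0.0097 with DESeq2, 0.11 and 0.075 with upper-quartile scaling, 0.032 and 0.0095 with RLE scaling, and 0.072 and 0.039 with no filter. At a mean of at least 5 CPM, Tap2 was at 0.20, Tapbp at 0.015, Calr at 0.011 and Pdia3 at 0.15. The prefix covariate gave H2-K1 -0.13, H2-D1 -0.28 and B2m -0.19, the 1 batch gave -0.12, -0.26 and -0.18, and the replicate block gave H2-D1 -0.012, B2m -0.073 and Tap2 0.0085. In OKO vs OWT, Tap2 was at 0.017 with DESeq2 and with RLE scaling. Tap1 and Tap2 were at 0.093 and 0.12 with upper-quartile scaling, and 0.12 and 0.15 at a mean of at least 5 CPM. H2-D1 and Calr were at 0.019 and 0.071 with the prefix covariate, 0.030 and 0.074 within 1 batch, and 0.030 and 0.069 with title set as a covariate.

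With a library left out, the log2 fold change crossed 0 in OWT vs YWT for Tap2 (-0.058 to 0.11), Calr (-0.036 to 0.16) and Nlrc5 (-0.13 to 0.17), in YKO vs YWT for H2-D1 (-0.15 to 0.033), Tap2 (-0.19 to 0.0036) and Nlrc5 (-0.077 to 0.061), in OKO vs YKO for Tap2 (-0.098 to 0.12) and Pdia3 (-0.16 to 0.085), and in OKO vs OWT for Tap1 (-0.31 to 0.015). Scaled by library total alone, 4 of 40 group means moved by more than 1 SD: H2-D1 in YKO to 2557 CPM, Tapbp in YKO to 437, Calr in OWT to 871 and Pdia3 in OWT to 642.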
